A study of Rattus norvegicus with 6 samples.

Results

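The urea cycle and ammonia handling genes were followed here in the livers of male Sprague-Dawley rats given o-Anthranilic acid or its vehicle. The members were chosen by name, with earlier results of these data known. The list held 10 genes, and the non-control probes whose accession matched one of them were taken from each array. Probes were matched for 9 of the 10 genes, 13 probes in all, out of 61657 non-control probes and 15284 genes with a matched probe. No probe was matched for Slc25a13, the mitochondrial aspartate-glutamate carrier, and it is not analysed here. All 13 member probes passed the filter on dim signals described below, 12 of them above background on all 6 arrays.

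The treated rats were 3 males given o-Anthranilic acid, 2-aminobenzoic acid, at 1000 mg/kg/day. The other 3 males received corn oil alone, and all rats were 5 weeks old at purchase. One label gives 9 weeks of administration and the series text gives 28 days, so the length of dosing behind every value is uncertain. Each liver was hybridised to 1 single-colour Agilent array. The labels number the arrays as replicates 1 to 3 in each group, and they are taken here as separate animals. Strain, sex, diet and housing were shared by both groups.

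The urea cycle is the route by which hepatocytes turn toxic ammonia into urea for excretion. It starts in mitochondria, where ammonia and bicarbonate become carbamoyl phosphate and then citrulline, and it ends in the cytosol, where arginine is split into urea and ornithine. Hepatocytes near the portal vein carry the cycle and the liver glutaminase, whereas a narrow layer around the central vein captures remaining ammonia as glutamine.

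Each array gave a background-subtracted signal for every probe, and values below are that signal divided by the array's 75th percentile (relative signal). These relative signals compare livers at 1 probe and do not rank different genes. The share of probes well above background ran from 53.3% to 58.0% over the 6 arrays, and no spot was saturated. The correlation of array pairs ran from 0.987 to 0.992 inside groups and from 0.984 to 0.989 across groups. All 10 hepatocyte markers were above background on all 6 arrays. Of the 6 markers of muscle and pancreas, 1 was above background on all 6 arrays and 3 on none. Of the 4 kidney and gut markers, 3 had a probe, with 1 above background on all 6 arrays and 2 on none. Slide 1 held 5 arrays. Anthranilic acid replicate 3 lay on slide 2, and its header carried a different scan date entry. On slide 1 the anthranilic acid arrays lay in row 2 and the corn oil arrays in row 1, so on that slide the row and the treatment cannot be told apart.

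Among the 9 measured genes, Otc had a higher signal in every anthranilic acid liver than in any corn oil liver, and Glul and Asl had a lower one. The other 6 genes, among them Cps1 and Arg1, had overlapping groups. None of the 13 probes passed limma at an adjusted p of 0.05, against 11 of 33428 probes on the whole array (0.0329%) and 0 of 10257 genes (0%). At an unadjusted p under 0.05 there were 2 of the 9 genes, Otc and Glul, or 22.2%, where 11.6% of all genes met that limit. That count was 1 to 3 over the alternatives run, and 1 without corn oil replicate 1, anthranilic acid replicate 1 or anthranilic acid replicate 2. Groups did not overlap for 3 of the 9 genes (33.3%) and for 19.8% of all genes. The median log2 difference, anthranilic acid minus corn oil, was -0.03 over the 9 genes, with 4 above 0 and 5 below, and 0.01 over all genes. The member median turned in direction under some alternatives, from -0.04 to 0.03.

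**Figure D1:**
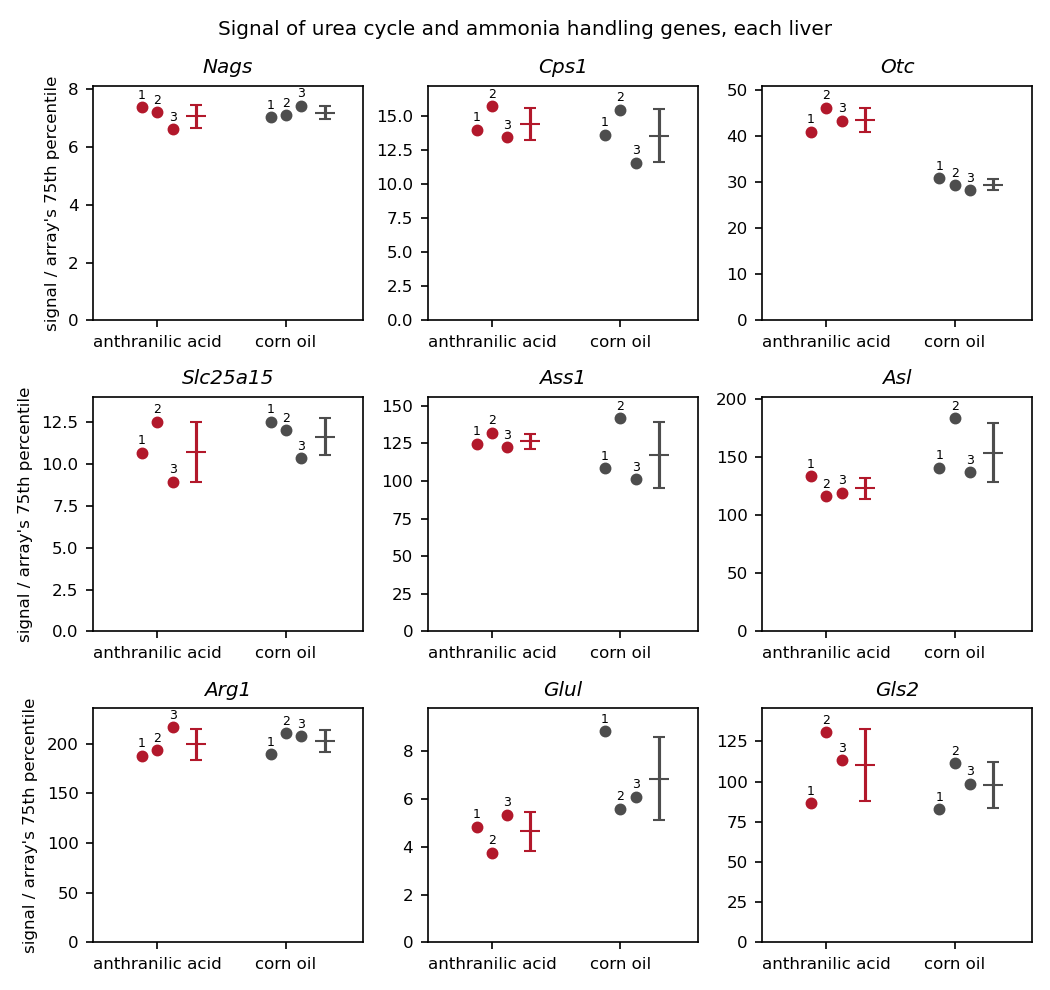
Relative signal (processed signal divided by the array's 75th percentile, linear axis from 0) of the brightest probe of 9 urea cycle and ammonia handling genes in each liver. Numbered points are replicates 1 to 3, and the bar beside each group is the mean with its SD (n = 3). The groups separate for Otc, with 40.9 to 46.1 in anthranilic acid livers and 28.3 to 30.8 in corn oil livers, and for Asl and Glul in the other direction.

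Otc encodes ornithine transcarbamylase, the mitochondrial enzyme that joins carbamoyl phosphate to ornithine and makes citrulline. Its promoter is shown because Otc stood furthest from 0 of the 9 genes. The sequence is RefSeq's, GRCr8, chrX:15202424-15202723 on the minus strand, from 250 bases before to 50 bases after the annotated start. Capitals mark the letters CTTTGAT, found by a search for TCF sites.
Otc promoter: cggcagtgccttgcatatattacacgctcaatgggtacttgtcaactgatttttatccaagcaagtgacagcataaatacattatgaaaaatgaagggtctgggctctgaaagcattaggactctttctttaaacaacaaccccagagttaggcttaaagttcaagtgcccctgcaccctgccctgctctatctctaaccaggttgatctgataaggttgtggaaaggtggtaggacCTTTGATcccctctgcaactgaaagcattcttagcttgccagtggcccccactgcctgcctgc

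The relative signal of Otc was 40.9, 46.1 and 43.3 in the anthranilic acid livers, against 30.8, 29.3 and 28.3 in the corn oil livers. All 3 treated livers lay above all 3 controls, and the gap between the groups was wider than the spread inside either. The mean was 43.4 ± 2.63 in anthranilic acid livers and 29.4 ± 1.27 in corn oil livers (SD, n = 3 each). The fitted log2 difference was 0.56 (SE 0.09, 95% interval 0.35 to 0.77), a 1.47-fold difference with an interval of 1.27 to 1.71. The limma adjusted p was 0.149, so Otc did not pass, although its unadjusted p of 0.000605 ranked it 29 of 10257 genes. The size of the difference was at or above that of 93.9% of all genes. It was 0.56 within slide 1, equal to the fit with slide as a block, and lay between 0.52 and 0.60 when any 1 array was left out.

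The steps before Otc had overlapping groups. Nags makes N-acetylglutamate, the obligatory activator of the first enzyme of the cycle. Its relative signal was 7.39, 7.21 and 6.63 in anthranilic acid livers, against 7.05, 7.11 and 7.44 in corn oil livers. The groups overlapped, and the log2 difference was -0.03 (SE 0.08, 95% interval -0.23 to 0.18, limma adjusted p = 0.921). Cps1, carbamoyl phosphate synthetase of the mitochondrial matrix, is the enzyme that Nags activates. Its relative signal was 14.0, 15.7 and 13.5 in treated livers, against 13.6, 15.5 and 11.6 in corn oil livers. Corn oil replicate 3 was the lowest of the 6, and the treated values lay among or near those of the other two controls. The log2 difference for Cps1 was 0.09 (SE 0.13, 95% interval -0.23 to 0.41, limma adjusted p = 0.799). It was -0.02 without corn oil replicate 3.

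Slc25a15 is the mitochondrial carrier that brings ornithine in for Otc and takes citrulline out. Its brighter probe had relative signals of 10.69, 12.6 and 8.96 in anthranilic acid livers, against 12.5, 12.1 and 10.4 in corn oil livers. The highest and the lowest of the 6 were both treated livers. The log2 difference was -0.13 (SE 0.15, 95% interval -0.49 to 0.23, limma adjusted p = 0.746), and it was -0.0045 without anthranilic acid replicate 3. The second Slc25a15 probe was dim, above background on 2 of 3 treated and 3 of 3 control arrays. Its log2 difference was -0.01 (SE 0.21).

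In the cytosol, Ass1, argininosuccinate synthetase, joins citrulline to aspartate, which brings in the second nitrogen of urea. Its relative signal was 125, 132 and 122 in anthranilic acid livers, against 108, 142 and 101 in corn oil livers. The treated livers lay close together, with an SD of 5.06, whereas corn oil replicate 2 stood above all others and the control SD was 21.8. The log2 difference was 0.12 (SE 0.14, 95% interval -0.22 to 0.47, limma adjusted p = 0.743). With 1 array left out it ranged from 0.02 without corn oil replicate 3 to 0.27 without corn oil replicate 2.

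Asl, argininosuccinate lyase, splits the product of Ass1 into arginine and fumarate. Its promoter is shown because the groups of Asl did not overlap. RefSeq places it at chr12:32295658-32295957 (GRCr8, plus strand), and none of the motifs searched was found in it, so no letter is in capitals.
Asl promoter: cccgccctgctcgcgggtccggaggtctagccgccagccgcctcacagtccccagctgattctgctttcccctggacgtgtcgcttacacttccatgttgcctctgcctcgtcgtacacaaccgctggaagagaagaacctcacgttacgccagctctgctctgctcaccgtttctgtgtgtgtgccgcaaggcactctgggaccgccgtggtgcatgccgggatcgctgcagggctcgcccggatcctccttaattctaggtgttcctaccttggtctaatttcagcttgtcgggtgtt

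The brighter Asl probe had relative signals of 133, 116 and 119 in anthranilic acid livers, against 141, 183 and 137 in corn oil livers. Every treated liver was below every control, but the gap was narrow, and corn oil replicate 2 was far above the rest. The log2 difference was -0.31 (SE 0.14, 95% interval -0.65 to 0.02, limma adjusted p = 0.424), a 1.24-fold lower signal in treated livers. Without corn oil replicate 2 it was -0.18. At the second Asl probe the relative signal was 26.9, 24.9 and 24.6 in treated livers, against 31.1, 41.0 and 26.4 in corn oil livers. Anthranilic acid replicate 1 exceeded corn oil replicate 3 there, and the log2 difference was -0.34 (SE 0.17), or -0.17 without corn oil replicate 2. The shift of the second Asl probe differed from that of the brighter by -0.03 on the log2 scale (SE 0.08, limma adjusted p = 0.958). Over the whole array, 3 of 9801 such same-gene pairs passed (0.0306%).

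Arg1, the liver arginase, releases urea and returns ornithine to the cycle. Its relative signal was 188, 193 and 217 in anthranilic acid livers, against 190, 211 and 208 in corn oil livers. The groups overlapped throughout, and the log2 difference was -0.03 (SE 0.10, 95% interval -0.26 to 0.21, limma adjusted p = 0.931). The interval of a fold for Arg1, 0.835 to 1.16, shows what difference these 6 arrays leave possible.

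Glul and Gls2 act on glutamine rather than in the cycle itself. Glul, glutamine synthetase, fixes ammonia into glutamine and is confined in liver to hepatocytes around the central vein, where beta-catenin and its TCF partners drive it. RefSeq lists Glul with 2 promoter entries. Glul is shown for the same reason as Asl, and the entry given is the first listed. In the second entry, at chr13:68575816-68576115 on the plus strand, CCAAT was found, and the TCF letters and the other motifs searched were not. Which of the 2 starts these livers use was not tested. The first entry lies at chr13:68519250-68519549 (GRCr8, plus strand). Capitals mark the TCF letters read on the opposite strand, the CCAAT letters read on the opposite strand, and TGACG.
Glul promoter: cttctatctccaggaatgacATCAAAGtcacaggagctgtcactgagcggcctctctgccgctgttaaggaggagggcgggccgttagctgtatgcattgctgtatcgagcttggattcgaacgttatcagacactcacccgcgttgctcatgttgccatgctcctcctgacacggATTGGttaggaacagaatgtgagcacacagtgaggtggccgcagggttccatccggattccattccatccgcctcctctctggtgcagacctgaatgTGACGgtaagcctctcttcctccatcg

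The brighter Glul probe had relative signals of 4.83, 3.75 and 5.34 in anthranilic acid livers, against 8.81, 5.58 and 6.08 in corn oil livers. All treated livers lay below all controls, with corn oil replicate 1 well above the other controls. The log2 difference was -0.54 (SE 0.21, 95% interval -1.06 to -0.03, limma adjusted p = 0.397, unadjusted p = 0.0425), a 1.46-fold lower signal in treated livers. Without corn oil replicate 1 it was -0.35. The second Glul probe also had groups that did not overlap, with 3.92, 3.40 and 4.02 in treated livers, against 6.96, 4.29 and 4.41 in corn oil livers. Its log2 difference was -0.43 (SE 0.20, limma adjusted p = 0.445), or -0.20 without corn oil replicate 1. The shifts of the brighter and the second Glul probe differed by -0.11 (SE 0.09, limma adjusted p = 0.833).

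Gls2, the liver-type glutaminase, frees ammonia from glutamine in periportal mitochondria. Its brighter probe had relative signals of 86.4, 131 and 113 in anthranilic acid livers, against 82.9, 111 and 98.8 in corn oil livers. Replicate 1 was the lowest and replicate 2 the highest in each group, and the ranges of the groups overlapped. The log2 difference was 0.16 (SE 0.19, 95% interval -0.29 to 0.61, limma adjusted p = 0.741). With 1 array left out it ranged from 0.03 without anthranilic acid replicate 2 to 0.33 without anthranilic acid replicate 1. The second Gls2 probe gave 0.17 (SE 0.18), within 0.008 of the first (SE 0.06, limma adjusted p = 0.993).

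**Figure D2:**
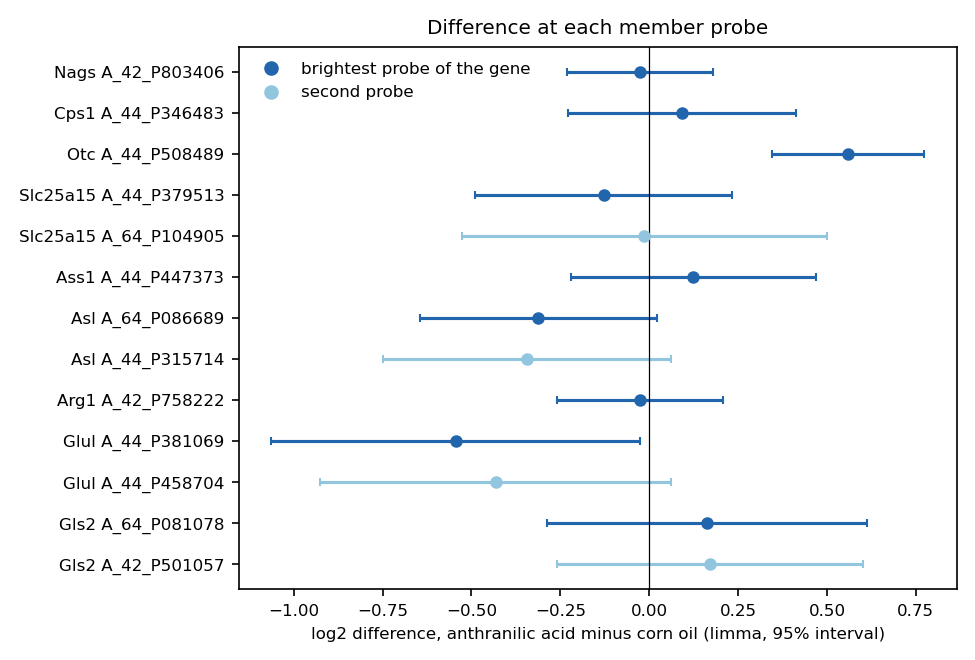
Log2 difference, anthranilic acid minus corn oil, at each of the 13 member probes, with the 95% interval of the limma fit (3 arrays a group). Dark points are the brightest probe of a gene and light points its second probe. The interval of Otc, 0.35 to 0.77, and that of the brighter Glul probe, -1.06 to -0.03, leave out 0, and the other 11 include it.

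Of 6 motifs searched on both strands of the 300-base promoters, the TCF letters CTTTGAT occurred in Otc and in the first Glul entry. They occur in 3.63% of the 33469 RefSeq promoters. CCAAT occurs in 37.5% of them, and among the members in Slc25a15, Slc25a13, both Glul entries and Gls2. TGACG occurs in 21.2% of them, and among the members in Nags, Slc25a13, the first Glul entry and Gls2. The other motifs were TATAAA (14.2%), found in Ass1, TGACGTCA (1.83%), which contains TGACG, and the C/EBP motif TTGCNNAA (10.6%). Neither TGACGTCA nor the C/EBP motif was found in a member. RefSeq entries were found for 9 of the 10 members, Arg1 excepted. A match describes the letters in that window and is not a measured binding site.

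The steps of the cycle were also set against each other within each array, by the difference between 2 genes' log2 signals. Otc shifted more than Cps1 by 0.47 (SE 0.12, n = 3 each), and more than Slc25a15 by 0.69 (SE 0.13). The shift of Ass1 was below that of Otc by -0.44 (SE 0.15), and that of Asl below that of Ass1 by -0.44 (SE 0.08). In each of these 4 comparisons the 3 treated livers did not overlap the 3 controls. An exact permutation test over the 6 arrays gave p = 0.1 (two-sided), the smallest that 3 against 3 allows. Each of the 4 includes Otc or Asl, whose own groups did not overlap, so they are not separate results. How often such differences keep the groups apart over other gene pairs was not examined. Corn oil replicate 2 had the highest signal for both Ass1 and Asl, the consecutive cytosolic steps, and their difference within an array leaves that shared height out. The remaining 5 of the 9 comparisons overlapped, among them Arg1 against Asl (0.29, SE 0.16), Glul against Gls2 (-0.71, SE 0.43) and Cps1 against Nags (0.12, SE 0.15), with exact p from 0.2 to 0.6.

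Genes that bring nitrogen to the cycle or serve it from the side were given by a separate list, of which 19 of 22 were measured. There were 0 that passed limma in either direction, 4 higher and 1 lower at an unadjusted p under 0.05, where 5.47% and 6.15% of all genes met that limit. Their median log2 difference was 0.07. Got1, the cytosolic aspartate aminotransferase, had relative signals of 15.2, 10.1 and 14.9 in anthranilic acid livers, against 20.4, 33.9 and 20.8 in corn oil livers. The groups did not overlap, and the log2 difference was -0.89 (SE 0.26, limma adjusted p = 0.313). Nit2, an omega-amidase that releases ammonia from a transaminated form of glutamine, differed by 0.38 (SE 0.11, limma adjusted p = 0.304), again with groups apart. Asns, asparagine synthetase, differed by 1.18 (SE 0.40, limma adjusted p = 0.362). Anthranilic acid replicates 1 and 3 had Asns signals of 3.59 and 3.78, while replicate 2, at 1.38, lay among the corn oil livers at 1.05, 1.47 and 1.03.

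Of 21 carriers and channels for ammonia, urea, glutamine and cationic amino acids, 15 were measured and 0 passed limma, with 1 higher and 2 lower at an unadjusted p under 0.05, where 5.47% of all genes were higher and 6.15% lower. Rhbg, an ammonia channel of the Rhesus family that in liver sits on the same pericentral cells as Glul, had relative signals of 0.781, 0.544 and 1.01 in anthranilic acid livers, against 2.37, 1.26 and 1.15 in corn oil livers. All treated livers were lower, and the log2 difference was -0.995 (SE 0.34, limma adjusted p = 0.364). Slc7a2, a cationic amino acid carrier that takes up arginine and ornithine, differed by -0.38 (SE 0.13, limma adjusted p = 0.373). Aqp9, a channel for glycerol and urea, differed by 0.41 (SE 0.14, limma adjusted p = 0.356).

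Enzymes on routes that release ammonia from amino acids, amines, purines and pyrimidines had more members above 0 than below. Not every listed enzyme carries out the releasing step itself. Of 23 measured genes out of 25, 20 were higher and 3 lower, with a median log2 difference of 0.18, against 0.01 over all genes, of which 5332 of 10257 were higher. There were 0 that passed limma, and 5 higher and 0 lower at an unadjusted p under 0.05, where 5.47% of all genes were higher and 6.15% lower. Groups did not overlap for 7 of the 23 (30.4%) and for 19.8% of all genes. The monoamine oxidases Maoa and Maob differed by 0.33 (SE 0.08, limma adjusted p = 0.268) and 0.43 (SE 0.13, limma adjusted p = 0.322). Dao, the D-amino acid oxidase, differed by 0.40 (SE 0.13, limma adjusted p = 0.340). The median of this list was 0.12 without anthranilic acid replicate 2, and 0.18 with all arrays.

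Because Glul marks the pericentral layer and Gls2 the periportal zone, other genes known for these zones were examined. Of 15 pericentral genes 12 were measured, and 9 of them were lower and 3 higher, with 0 that passed limma with 0 higher and 2 lower at an unadjusted p under 0.05, where 5.47% of all genes were higher and 6.15% lower. Slc13a3, a dicarboxylate carrier, had relative signals of 19.4, 15.7 and 16.1 in anthranilic acid livers, against 36.8, 37.4 and 22.7 in corn oil livers. The groups did not overlap, and the log2 difference was -0.89 (SE 0.22, limma adjusted p = 0.258). Rhbg belongs to this list too, and Oat, the ornithine aminotransferase that consumes ornithine, differed by -0.69 (SE 0.29, limma adjusted p = 0.408). Cyp2e1 and Cyp1a2, the cytochromes that typify the zone, stood at 0.23 and -0.07, and they were named after their values were seen. The median of the pericentral list was -0.07, but it was -0.23 with slide as a block or without corn oil replicate 2, -0.19 without anthranilic acid replicate 1, -0.15 without corn oil replicate 3, -0.11 without corn oil replicate 1 and -0.03 without anthranilic acid replicate 2.

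Of 15 periportal genes 12 were measured, with 8 higher and 4 lower, a median of 0.27 and 0 that passed limma. At an unadjusted p under 0.05, 3 were higher and 2 lower, where 5.47% of all genes were higher and 6.15% lower. Cdh1, the adhesion molecule E-cadherin, had relative signals of 14.2, 17.3 and 15.7 in anthranilic acid livers, against 9.36, 9.86 and 9.51 in corn oil livers, a log2 difference of 0.71 (SE 0.10, limma adjusted p = 0.120). Hsd17b13, a lipid droplet enzyme, and Cyp2f4, a cytochrome, differed by 0.68 (SE 0.13, limma adjusted p = 0.207) and 0.57 (SE 0.13, limma adjusted p = 0.240), each with groups apart. Pck1, the rate-limiting enzyme of gluconeogenesis and also periportal, stood at -0.64 (SE 0.16, limma adjusted p = 0.282), and it was named after its values were seen. The periportal median was 0.15 without corn oil replicate 1.

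**Figure D3:**
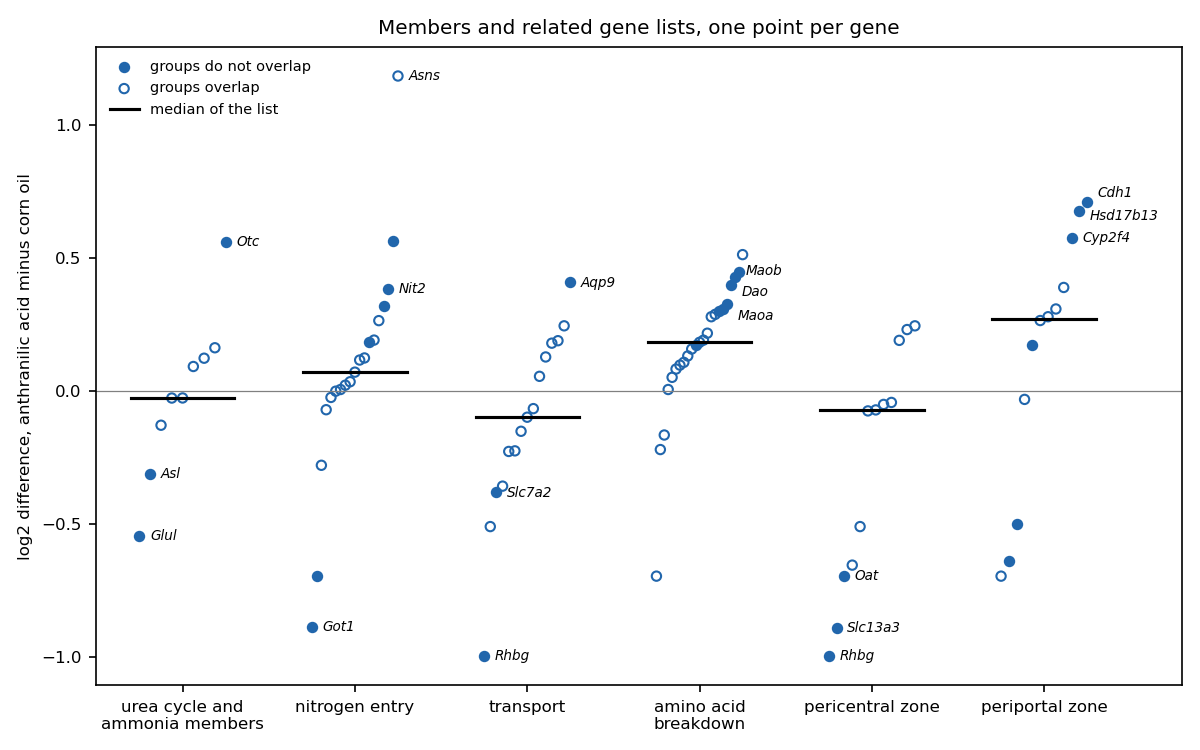
Log2 difference, anthranilic acid minus corn oil, of each measured gene in the 9 members and 5 related lists. Filled points are genes whose groups do not overlap, open points the rest, and the black line is the list's median. Rhbg and Slc1a2 belong to both the transport and the pericentral list, Oat to the nitrogen entry and the pericentral list, and Ftcd, Hal and Sds to the amino acid breakdown and the periportal list. The medians lie between -0.10 and 0.27, and no point passed limma at an adjusted p of 0.05.

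Levels in whole liver cannot tell fewer cells of a type from less RNA per cell, and this holds for every gene above. Markers of cell types moved as follows beside these values, and their part in the results was not tested. The summed relative signal of the 10 hepatocyte markers was 6336 to 6469 in anthranilic acid livers, against 6706 to 7054 in corn oil livers, with all 10 lower and a median log2 difference of -0.07. Of 8 lymphocyte markers 5 were measured, all higher, with sums of 2.50 to 3.24 in treated livers, against 1.83 to 2.04 in corn oil livers, and Cd3e was above background on no array. Kupffer cell and macrophage markers, of which 8 of 8 were measured, summed to 92.2 to 124 in treated livers, against 101 to 122 in corn oil livers. Of these, 7 were lower and 1 higher, with a median log2 difference of -0.17. Of the erythroid markers 4 of 6 were measured, all higher, with sums of 694 to 847 in treated livers, against 478 to 806 in corn oil livers. The sums of the 5 cholangiocyte markers were 1.16 to 1.47 in treated livers, against 1.14 to 1.55 in corn oil livers. Of these, 4 were higher and 1 lower, with a median log2 difference of 0.38. The lower one, Epcam (-0.53), gave the largest part of the sum. In the same way, Clec4f gave the largest part of the Kupffer cell and macrophage sum. Nkg7 did so for the lymphocyte sum and Hba-a1 for the erythroid sum, so a sum mostly follows its brightest probes. Endothelial markers, 4 of 6 measured, summed to 43.7 to 48.3 in treated livers, against 46.9 to 47.5 in corn oil livers, with 1 higher and 3 lower. The 6 stellate markers summed to 30.7 to 38.7 in treated livers, against 34.7 to 36.4 in corn oil livers, with 3 higher and 3 lower. Neutrophil markers were measured for 2 of 4 genes, with sums of 1.72 to 3.51 in treated livers, against 1.49 to 2.47 in corn oil livers, and Elane was above background on no array. Of the muscle and pancreas markers 2 of 6 were measured, with sums of 0.396 to 0.444 in treated livers, against 0.456 to 0.548 in corn oil livers, and of the kidney and gut markers 1 of 4, with sums of 1.97 to 2.31 in treated livers, against 1.63 to 2.93 in corn oil livers.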

How the data were processed

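The scanner intensities come from Agilent Feature Extraction 10.7.1.1, per the file headers, with background subtracted and spatial trends removed, and without normalisation between arrays. In the authors' deposited table each value is a ratio of processed signal to 1 value per array, which lay within 0.126% of that array's 75th percentile. Column medians of this table ran from 0.0887 to 0.0976. Its scaling is not stated in the labels or headers, and it served as an alternative.

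From the processed signal, log2 values were taken and each array's 75th percentile (non-control probes) was subtracted. Outlier flags removed 14 of 369942 spots. Testing required signals well above background on every array of 1 group at least, and 2 or more unflagged spots per group, so 33428 probes were tested. Accessions were matched to RefSeq genes of GRCr8, and 27460 of 61657 probes (44.5%) gained a symbol. The headers name rn4 as the build. A gene was represented by its brightest tested probe, and 10257 genes were tested.

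Anthranilic acid was compared with corn oil by limma 3.58.1 (R 4.3.3) with two-sided p-values. Each p was adjusted over all 33428 probes by the Benjamini-Hochberg method, with a threshold of 0.05. Shifts of 2 probes of 1 gene were compared by limma over 9801 pairs. Steps of the cycle were compared by an exact permutation test. The procedure was run on simulated data with known changes, where passing limma was required only of changes far larger than those of the members. That run does not show how often differences of the members' size would pass. With 3 arrays a group, the number of arrays limits the precision. Replicate numbers were not taken as pairs. Same-numbered deviations from the group means correlated at 0.07, -0.05 and -0.04, and differently numbered ones at -0.13 to 0.16. With 3 arrays a group, these correlations cannot decide whether the arrays were paired.

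The members and lists were chosen with earlier results of these data known. All members and their probes are described. From each other list the 3 genes with the smallest p are named, and any others named were chosen after their values were seen. Alternatives covered background correction, scaling, the authors' table, the dim filter, slide and replicate number as blocks, variance model, array weights, the probe that represents a gene, and leaving out each array. Slide 2 held 1 array, so slide as a block gives the same differences as leaving out anthranilic acid replicate 3.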

Additional observations from a re-analysis of the deposited data

How the results depend on the processing

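None of the 13 member probes passed limma under any of the alternatives run, with 2 genes at an unadjusted p under 0.05 in the analysis as reported. That count was 1 with median scaling, without the dim filter or with array weights, 3 with normexp, quantile normalisation or the trended robust variance fit, and 1 to 3 with an array left out. The median of the member genes was 0.0257 with median scaling and 0.0205 with slide as a block, and -0.0410 to 0.0205 with an array left out. Otc lay between 0.51 and 0.61 on the log2 scale across all of them, with limma adjusted p from 0.0655 (trended robust variance) to 0.433 (without corn oil replicate 2). Across the same alternatives Glul ranged from -0.67 to -0.35 and Asl from -0.39 to -0.18 at their brighter probes. With the replicate number as a block, Otc was 0.56 (limma adjusted p = 0.373), and the block changed no call of a member. Differences near 0 turned in direction. Arg1 was 0.0257 with median scaling and ranged from -0.0874 to 0.0160 over the arrays left out in turn. Nags was 0.0254 with median scaling and 0.0205 with slide as a block, and ranged from -0.0578 to 0.0205 over the arrays left out. Cps1 ranged from -0.0162 to 0.193 over the arrays left out. The dim Slc25a15 probe was 0.0394 with normexp background correction, 0.0443 with quantile normalisation, 0.0378 with median scaling and 0.201 with slide as a block, and ranged from -0.184 to 0.201 over the arrays left out.

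Across the array, 11 probes passed as reported, 50 with normexp, 21 with median scaling, 2 without the dim filter, 2 with the filter on all 6 arrays, 6 with slide as a block, 2 with the replicate block, 45 with the trended robust variance fit, 18 when arrays were weighted and 50 at adjusted p under 0.1. It was 2 to 8 with an array left out. The count of genes was 0 by limma as reported, with 1192 at an unadjusted p under 0.05. It was 8 with normexp, 2 with median scaling, 1 with slide as a block, 4 with the trended robust variance fit, 1 when arrays were weighted, and 0 to 2 with an array left out. The causes were not tested. The median of all genes was 0.06 with median scaling, against 0.01 as reported. With an array left out, the median of the nitrogen entry list ranged from 0.02 to 0.11, that of transport from -0.21 to -0.04, that of amino acid breakdown from 0.12 to 0.26 that of the periportal zone from 0.15 to 0.37 and that of the regulators from 0.04 to 0.11. The signal of the second Slc25a15 probe lay near background, which limits what it can show.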

Other observations

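Regulators of urea cycle and glutamine genes were examined as a further list, of which 14 of 16 genes were measured. There were 11 higher and 3 lower in anthranilic acid livers, with a median log2 difference of 0.07 and 0 that passed limma. That median was 0.04 without anthranilic acid replicate 1, 0.04 without anthranilic acid replicate 2, 0.11 without corn oil replicate 3 and 0.12 with median scaling. At an unadjusted p under 0.05, 0 were higher and 1 lower, where 5.47% of all genes were higher and 6.15% lower. Klf15, a glucocorticoid-induced factor that promotes amino acid breakdown, stood at -0.36 (SE 0.10, limma adjusted p = 0.319), with groups that did not overlap. Foxa2, a forkhead factor of hepatocytes, stood at 0.63 (SE 0.26, limma adjusted p = 0.410), and Nr1h4, the bile acid receptor FXR, at 0.42 (SE 0.18, limma adjusted p = 0.420), both with overlapping groups. Hnf4a and Cebpa, liver factors that act on urea cycle promoters, stood at -0.14 (SE 0.13) and 0.06 (SE 0.19), and were named after their values were seen.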
